A study of Mus musculus with 4 samples.

Results

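Pregranulosa cells are the somatic cells that enclose each oocyte when germ cell cysts break down and primordial follicles form. In the fetal mouse ovary they are specified by FOXL2 and by WNT4 and RSPO1, secreted proteins that act through beta-catenin. Fetal oocytes were sorted here on SSEA-1, a surface sugar of germ cells. RNA of pregranulosa genes was therefore read as a check on somatic RNA in the oocyte libraries. The 10 genes described are Foxl2, Fst, Amhr2, Wnt4, Rspo1, Lgr5, Nr2f2, Gata4, Wt1 and Irx3. They were taken by symbol, and all 10 were found among the 55401 genes of the count files.

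The oocytes came from E18.5 female fetuses of ICR mothers fed either a normal diet (ND, 2 libraries) or a high-fat diet (HFD, 2 libraries) for 4 months from a juvenile age and mated with males on the normal diet. The labels call the cells primordial germ cells of the ovary. Each library was made with SMART-Seq2, an amplification method for small amounts of RNA, from pooled oocytes of several fetuses, so a library does not stand for 1 fetus or 1 mother. Nothing in the labels ties replicate 1 of one diet to replicate 1 of the other, and p-values measure the spread between these libraries.

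The libraries held 5723605 to 8223255 counts, and 3 counts correspond to 0.365 to 0.524 counts per 1000000 counts (CPM). All intervals describe counting error alone, as molecules were not tagged before amplification. Background was taken from 1093 olfactory receptor genes, which ovary is not known to use. A gene was called above background in a library when it had over 3 counts and its reads per kilobase of exon exceeded the 99th percentile of these genes, a limit of 7.36 to 12.5 reads per kilobase. By this limit, 13 to 19 of 22 germ cell genes were above background in a single library and 9 in all 4. Of all protein-coding genes 13.5% to 24.8% were so in a single library, and of genes tested between the diets 4.39% in all 4. Germ cell RNA was thus present in each library. The enzymes that can build SSEA-1, Fut4 and Fut9, did not exceed background in any library, with 5 to 39 counts. At 50 CPM, 3538 genes were found in at least 1 library, of which 71.4% reached that level in exactly 1 library and 2.88% in all 4.

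The pregranulosa genes fell into a few very abundant values and many at background. Nr2f2 was abundant in 3 libraries, Rspo1 and Amhr2 in HFD replicate 2 alone, and Fst in ND replicate 2 alone. The remaining 6 genes, among them Foxl2, stayed under 50 CPM in every library. Of the 40 values, 13 exceeded background, 6 of them by 18.8 to 255 times and 7 by 1.02 to 1.72 times. Of the 10 genes, 3, 5, 1 and 4 were above background in ND replicates 1 and 2 and HFD replicates 1 and 2, against 24.8%, 22.2%, 13.5% and 15.3% of all protein-coding genes in these libraries. Nr2f2 was so in all 4 libraries, as were 4.39% of the 19335 genes tested between the diets, Amhr2 and Rspo1 in 2, and Foxl2, Fst, Wnt4, Wt1 and Irx3 in 1. Lgr5 and Gata4 were so in no library, which also held for 49.2% of the genes tested.

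**Figure D1:**
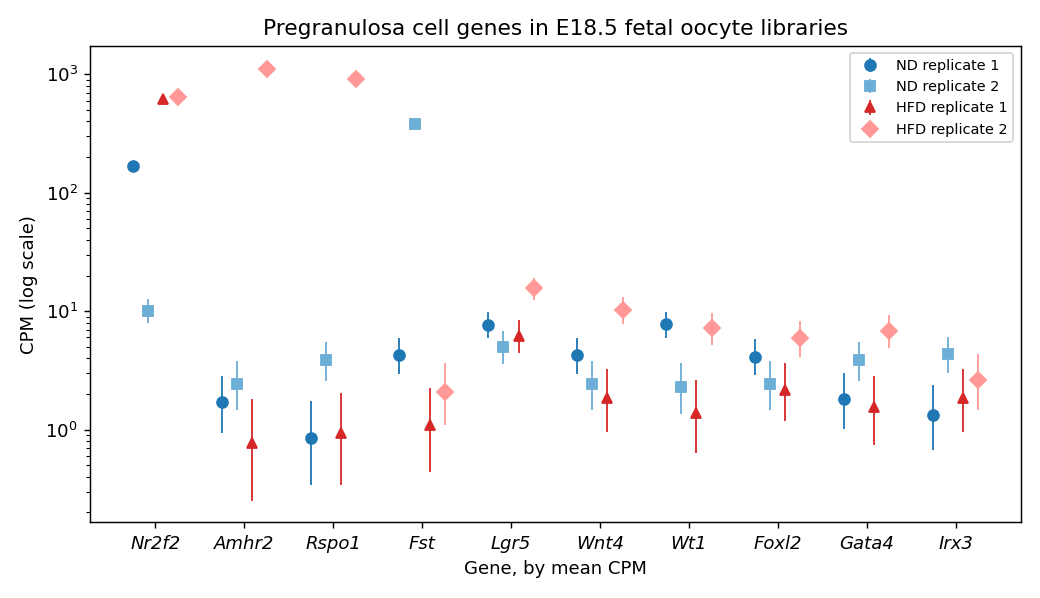
CPM of each pregranulosa gene (horizontal axis, ordered by mean CPM) in each library (log vertical axis), with exact 95% binomial intervals, some of which are smaller than the symbols. Nr2f2 lies at 167 CPM or above in 3 libraries, Amhr2 and Rspo1 reach 1113 and 919.7 CPM in HFD replicate 2 alone, Fst reaches 383 CPM in ND replicate 2 alone, and the other genes lie between 1.34 and 15.5 CPM.

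Transcription factors of the pregranulosa lineage were read first. Foxl2, the forkhead factor that specifies granulosa cells and keeps their identity, lies on chromosome 9 of GRCm38 from 98955288 to 98958543. Its counts under ND were 34 and 19 and under HFD 14 and 34, each in the order of replicates 1 and 2, or 4.13, 2.43, 2.17 and 5.94 CPM. Only the value of ND replicate 1 passed the background limit, by 1.23 times, and the diets overlapped. Per kilobase, Foxl2 exceeded 91.9% to 99.7% of the olfactory receptor genes in a library. The antisense transcript Foxl2os, which shares 12 exonic bases with Foxl2, had 22 to 54 counts, and the methods do not say whether reads were assigned by strand.

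Wt1 and Gata4 are zinc finger factors that the somatic gonad needs from its first formation. Wt1 had 64 and 18 counts under ND and 9 and 41 under HFD, and passed the limit in ND replicate 1 alone, by 1.22 times. Gata4 had 15, 30, 10 and 39 counts in the same order and stayed at 0.348 to 0.854 times the limit. Irx3, a homeobox factor of the Iroquois family that granulosa cells express during follicle formation, had 11, 34, 12 and 15 counts. Its one value above the limit was that of ND replicate 2, at 1.37 times. For these 3 factors, as for Foxl2, every value was 7.78 CPM or below and the diets overlapped.

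Nr2f2, known as COUP-TFII, is an orphan nuclear receptor that in the gonad marks interstitial and stromal progenitors rather than granulosa cells. It lies on chromosome 7 from 70351944 to 70366735. Its counts were 1376 and 79 under ND and 4020 and 3655 under HFD, or 167 (95% interval 159 to 176), 10.1 (8.0 to 12.6), 623 (604 to 642) and 639 (618 to 660) CPM. Both HFD libraries were above both ND libraries, with means of 88.7 ± 111 CPM in ND and 631 ± 11.3 CPM in HFD (SD, n = 2 each). The closeness of the HFD libraries held for unscaled CPM alone. After TMM normalization they stood at 914 and 438 CPM, and the means were 89.6 ± 111 in ND and 676 ± 337 in HFD. In ND replicate 2 the gene stood at 1.02 times the background limit. The transcript B130024G19Rik, on the opposite strand with 643 shared exonic bases, had 14 to 74 counts.

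Nr2f2 made up 83.2% and 97.2% of the summed counts of the 10 genes in ND replicate 1 and HFD replicate 1, but 2.41% and 23.5% in ND replicate 2 and HFD replicate 2. Per kilobase of exon it exceeded Foxl2 in the same library by 15.3 times (95% interval 10.9 to 22.2) in ND replicate 1, where both were above background. In HFD replicates 1 and 2, where Foxl2 was at background, Nr2f2 stood at 63.3 and 33.9 times the background limit. Collagens and other stromal markers moved with it in part. The 10 stromal genes summed to 2687 and 72.3 CPM in ND and 1607 and 7092 CPM in HFD, so that ND replicate 2 was lowest in both measures. Within the stromal list 6, 4, 2 and 6 genes were above background in these libraries. The shares of all protein-coding genes were 24.8%, 22.2%, 13.5% and 15.3%. Pdgfra, a receptor of stromal cells, had 58 and 29 counts under ND and 5 and 151 under HFD. It was thus lowest in HFD replicate 1 and highest in HFD replicate 2, where Nr2f2 stood at 623 and 639 CPM. The part of stromal RNA in the Nr2f2 values was not tested. In bulk libraries, fewer cells of a type and less RNA per cell cannot be told apart.

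The secreted proteins came next. Rspo1, the R-spondin that potentiates WNT signalling and promotes ovarian fate, lies on chromosome 4 from 124986430 to 125009099. Under ND it had 7 and 30 counts and under HFD 6 and 5264, or 0.851, 3.84, 0.929 and 919.7 CPM. HFD replicate 2 thus held 99.4% of the gene's summed CPM, and the value of HFD replicate 1 lay between those of the ND libraries, of which replicate 2 was at 1.72 times the background limit. Wnt4, the WNT ligand that acts in the same pathway, had 35, 19, 12 and 59 counts and was above background in HFD replicate 2 alone, by 1.13 times. In HFD replicate 2, Rspo1 exceeded Wnt4 by 193 times per kilobase (149 to 254), and in the other libraries Wnt4 was at background.

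Fst encodes follistatin, a secreted antagonist of activin that acts downstream of WNT4 in the fetal ovary. It lies on chromosome 13, and its counts were 35 and 2990 under ND and 7 and 12 under HFD, or 4.26, 383, 1.08 and 2.10 CPM. ND replicate 2 stood apart from the other 3 libraries, which were all at background, and both HFD values were below both ND values. The mean was 193 ± 268 CPM in ND and 1.59 ± 0.716 CPM in HFD (SD, n = 2 each). In ND replicate 2 Fst stood at 72.5 times the background limit, where Foxl2 was at 0.649 times. Fst shares 115 exonic bases with Gm47040 on the opposite strand, which had 0 to 16 counts.

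Of the receptors, Amhr2, which binds anti-Mullerian hormone, lies on chromosome 15 from 102445367 to 102454633. Under ND it had 14 and 19 counts and under HFD 5 and 6372, or 1.70, 2.43, 0.774 and 1113 CPM. HFD replicate 2 held 99.6% of the gene's summed CPM, HFD replicate 1 was the lowest of the 4 libraries, and ND replicate 2 was at 1.05 times the background limit. Amh, the gene of its ligand, had 1 to 6 counts. Lgr5, a receptor of R-spondins that marks pregranulosa cells derived from the ovarian surface, had 63, 39, 40 and 89 counts, spread over 10264 bases of exon, and stayed at 0.423 to 0.723 times the background limit. Its largest value in CPM, 15.5, was again that of HFD replicate 2.

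**Figure D2:**
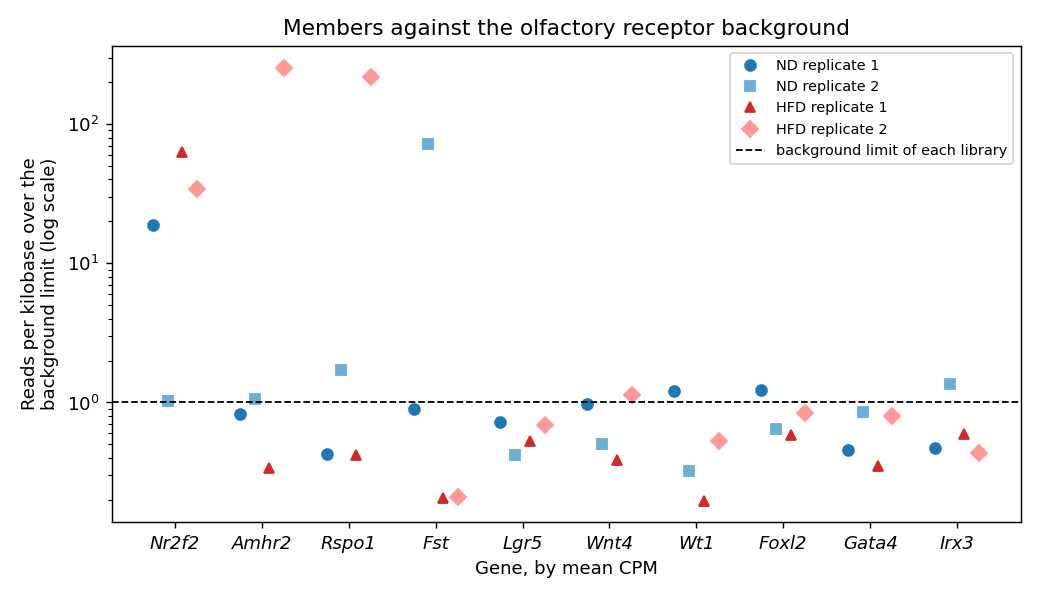
Reads per kilobase of exon of each pregranulosa gene divided by the background limit of the same library (log vertical axis), with 1 point per library and the limit as a dashed line. The points well above the line are 3 of Nr2f2 and 1 each of Amhr2, Rspo1 and Fst, from 18.8 to 255 times the limit, and no other point exceeds 1.72 times.

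In HFD replicate 2, Amhr2, Rspo1 and Nr2f2 took 98.1% of the counts on the 10 genes. Amhr2 exceeded Rspo1 by 1.17 times per kilobase in that library (95% interval 1.13 to 1.21). They stood at 255 and 218 times the background limit, and Wnt4 at 1.13 times. The transcription factors Foxl2, Gata4, Wt1 and Irx3 remained at background in the same library, at 0.836, 0.800, 0.530 and 0.435 times the limit. That library had the highest limit, 12.5 reads per kilobase. Foxl2 had 34 counts in it, as in ND replicate 1, where it passed. Foxl2 and Gata4, at 10.4 and 9.99 reads per kilobase, did exceed the 95th percentile of the olfactory receptor genes there, 8.51, so their call depends on the limit. Summed over the 10 genes, the level was 201 CPM in ND replicate 1, 419 CPM in ND replicate 2, 640.4 CPM in HFD replicate 1 and 2722 CPM in HFD replicate 2. Without Nr2f2 the sums were 33.8, 409, 17.8 and 2083 CPM, which places HFD replicate 1 lowest instead of second highest. The 6 genes under 50 CPM summed to 27.0, 20.3, 15.0 and 48.4 CPM.

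The promoters of Rspo1 and Amhr2 are shown because these genes alone reached their high values in the same single library. RefSeq sequences on GRCm38.p6 were found for 6 of the 10 genes, and for this pair the 250 bases before the start are given, 5′ to 3′ on the plus strand, with motif matches in capitals.
Rspo1, chr4:124986180-124986429: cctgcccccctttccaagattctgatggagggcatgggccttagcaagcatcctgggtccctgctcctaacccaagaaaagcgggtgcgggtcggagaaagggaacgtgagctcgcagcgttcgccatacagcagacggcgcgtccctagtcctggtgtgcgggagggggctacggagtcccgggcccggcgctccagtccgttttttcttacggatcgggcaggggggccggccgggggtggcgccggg
Amhr2, chr15:102445117-102445366: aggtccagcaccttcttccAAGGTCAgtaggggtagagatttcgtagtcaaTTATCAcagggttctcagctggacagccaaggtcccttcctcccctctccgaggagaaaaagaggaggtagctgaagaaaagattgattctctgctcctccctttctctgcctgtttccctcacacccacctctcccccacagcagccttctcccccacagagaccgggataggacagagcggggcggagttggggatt
Both strands were searched for 6 motifs, which do not contain one another. The nuclear receptor NR5A1 was represented by the letters AAGGTCA. The family of zinc finger factors that includes GATA4 was represented by AGATAA, found in 9.99% of all windows, as well as by TGATAA. For forkhead factors such as FOXL2 the letters were GTAAACA, found in 3.17% of all windows. For the TCF and LEF factors that carry the WNT signal they were ATCAAAG, and as a second form TTCAAAG, found in 4.46% of all windows. The Amhr2 promoter held AAGGTCA, which 4.08% of 32851 promoter windows hold, starting 231 bases before the gene, and TGATAA on the opposite strand (printed as TTATCA), which 7.94% hold. The Rspo1 window held none of them. Of the other 4 promoters found, that of Nr2f2 held ATCAAAG, present in 3.21% of windows, and those of Wnt4, Irx3 and Foxl2 held none. A match in these letters describes the sequence and was not tested for binding. Nr5a1 itself, the nuclear receptor of steroidogenic gonadal cells, was at background in all 4 libraries, with 34, 37, 15 and 21 counts.

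To compare the diets, edgeR's quasi-likelihood test was fitted on all 19335 genes that passed its filter on low counts, with Benjamini-Hochberg adjustment, and all 10 pregranulosa genes were among them. Of these, 0 were higher and 0 were lower in HFD at an adjusted p under 0.05 and a fold change over 1.5, as for 0% of all genes tested. At an unadjusted p under 0.05 there was 1, Fst, against 11.2% of all genes tested. The fit placed 7 genes higher and 3 lower in HFD, with a median log2 fold change of 0.36 for the 10 genes and 0.03 for all genes tested. After TMM normalization both HFD values exceeded both ND values for Nr2f2 and for Lgr5, whose values were all at background. This pattern was found for 16.1% of genes tested. Both HFD values were below both ND values for Fst, as for 17.8% of genes tested. In unscaled CPM, Lgr5 overlapped between the diets, Nr2f2 was higher in both HFD libraries, as were 13.9% of genes tested, and Fst was lower in both, as were 13.4%.

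The differences of Fst, Amhr2 and Rspo1 rested on 1 library each, and that of Nr2f2 kept its direction with any library left out. For Fst the fitted log2 difference, HFD over ND, was -7.10 (standard error 2.47, adjusted p = 0.406), and it was -1.54 without ND replicate 2. For Amhr2 it was 7.44 (standard error 3.09, adjusted p = 0.406) and became -0.91 without HFD replicate 2. For Rspo1 it was 6.96 (standard error 3.08, adjusted p = 0.406) and became -0.86 without the same library. For Nr2f2 it was 2.91 (standard error 2.09, adjusted p = 0.601), with 5.88 when ND replicate 1 was omitted and 1.98 when ND replicate 2 was. DESeq2 on all genes called 3 of the 10, namely Fst, Amhr2 and Rspo1, with adjusted p of 0.000119, 0.000257 and 0.000638, where it called 45.3% of the 5601 genes to which it gave an adjusted p. It gave none to Foxl2, Wnt4, Gata4, Wt1 and Irx3. edgeR's legacy fit called 0 of the 10 (0.176% of all genes tested), and limma-voom called 0.

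The 6 genes that stayed under 50 CPM had fitted log2 fold changes between -0.56 and 0.59. Foxl2 stood at 0.09 (standard error 0.42) and Wnt4 at 0.50 (standard error 0.62). Gata4 was at 0.21 (standard error 0.62), Lgr5 at 0.59 (standard error 0.53), Irx3 at -0.42 (standard error 0.71) and Wt1 at -0.56 (standard error 0.77). Their adjusted p lay between 0.695 and 0.965 in edgeR's quasi-likelihood test, and each estimate except that of Lgr5 changed sign when 1 library was left out. Of their 24 values, 20 were at background.

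**Figure D3:**
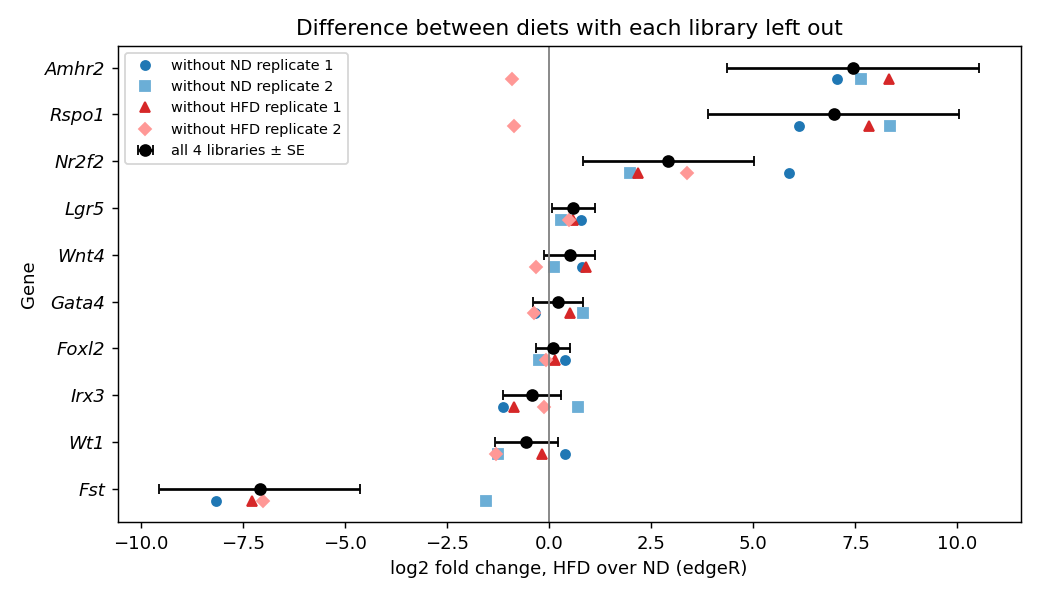
log2 fold change of HFD over ND (horizontal axis) for each pregranulosa gene from edgeR, with all 4 libraries (black, ± standard error) and with 1 library left out (coloured symbols). Amhr2 and Rspo1 move from 7.44 and 6.96 to below 0 without HFD replicate 2, and Fst moves from -7.10 to -1.54 without ND replicate 2.

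Other genes of granulosa cells were read from a list of 18. In ND replicates 1 and 2 and HFD replicates 1 and 2, 3, 2, 2 and 2 of them were above background. The shares of all protein-coding genes were 24.8%, 22.2%, 13.5% and 15.3%. In all 4 libraries 0 of them were so, against 4.39% of the genes tested between the diets. The sum was 143 and 40.2 CPM under ND and 61.3 and 506 CPM under HFD, the last of which was mostly Cdh2, N-cadherin, with 2548 counts. Cdh2 had 58 and 25 counts under ND and 183 in HFD replicate 1, a log2 fold change of 5.03 (standard error 1.72, adjusted p = 0.406 in edgeR), and many cell types express it. Gja1, a connexin of granulosa cells, had 750 counts in ND replicate 1 and 19 to 37 in the other libraries. Kitl, the ligand by which granulosa cells act on the oocyte receptor KIT, had 13 to 31 counts, and Fshr, the receptor of follicle-stimulating hormone, had 4 to 9. Of the 14 genes tested, 5 were higher and 9 lower in HFD. edgeR's quasi-likelihood test called 0 of them (1 at an unadjusted p under 0.05, against 11.2% of all genes tested). DESeq2 called 1, Cdh2, and over all genes 45.3% of those to which it gave an adjusted p. How many genes of this list or the lists below were given one is not reported, so their calls are not shares comparable with 45.3%.

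The WNT and R-spondin pathway was read from 37 genes beside Wnt4, Rspo1 and Lgr5. Of 36 tested, 12 were higher and 24 lower in HFD. edgeR's quasi-likelihood test called 0. DESeq2 called 12, of which 4 were higher and 8 lower. Over all genes it called 45.3% of those given an adjusted p, and how many of the 37 had one is not reported. The median log2 fold change was -0.50, against 0.03 over all genes tested, and 8 of the 36 had an unadjusted p under 0.05, where 11.2% of all genes did. Lgr4, the R-spondin receptor found in most tissues, had 5030 and 5392 counts under ND and 11 and 37 under HFD (log2 fold change -7.61, standard error 2.05, adjusted p = 0.406 in edgeR). Tcf7l2, a transcription factor of the pathway, ran the other way, with 53 and 38 counts in ND and 5134 and 1239 in HFD. Porcn, the enzyme that lipidates WNT ligands, had 10762 counts in ND replicate 1 and 5 to 24 elsewhere, and Dvl3, a cytoplasmic transducer, had 9872 counts in HFD replicate 2 and 17 to 60 elsewhere. Rspo1 and its receptor gene Lgr4 were thus abundant in different libraries. Of all genes that reached 50 CPM in any library, 71.4% did so in exactly 1, so such a difference is common here.

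Follistatin and AMH act in the activin and BMP pathways. For these, 26 genes were read, among them Amh, Inha, Inhba, Inhbb and Bmp2 of the granulosa list. Of 25 tested, 15 were higher and 10 lower in HFD, and the median log2 fold change was 0.15. edgeR's quasi-likelihood test called 0 of them (1 at an unadjusted p under 0.05, against 11.2% of all genes tested). DESeq2 called 5, all higher in HFD, which were Bmpr1a, Smad1, Smad2, Smad3 and Smad5. Over all genes it called 45.3% of those given an adjusted p, and how many of the 26 had one is not reported. Inhba and Inhbb, the activin subunits that follistatin binds, had 23 to 50 and 16 to 41 counts. The BMP target genes Id1 and Id3 had 37 to 12073 and 55 to 10561 counts and were above background in all 4 libraries. Of 21 transcription factors of the fetal gonad, 19 were tested, and 7 were higher and 12 lower. Nr5a1, Nr0b1, Runx1, Irx5 and Esr2 among them were also in the granulosa list, and Tcf21 was in the stromal list. edgeR's quasi-likelihood test called 0 of the 19 (2 at an unadjusted p under 0.05, against 11.2% of all genes tested). DESeq2 called 1 of the list, where over all genes it called the same 45.3% of those given an adjusted p. Tcf21, a factor of stromal progenitors, had 11 or 12 counts in 3 libraries and 151 in HFD replicate 2. Sox4 had 793 counts in HFD replicate 1 and 63 to 107 elsewhere, and Esr1, the estrogen receptor, had 177 counts in ND replicate 1 and 35 to 57 elsewhere.

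Markers of other cell types were set beside the pregranulosa genes. The 22 germ cell genes summed to 3318 and 8590 CPM in ND and 7296 and 8218 CPM in HFD, above the pregranulosa sum in every library. The pregranulosa sum covers 10 genes, so this order does not compare levels per gene. It includes Nr2f2, which made up 83.2% and 97.2% of its counts in ND replicate 1 and HFD replicate 1. Without Nr2f2 the sums in these 2 libraries were 33.8 and 17.8 CPM. Dazl, an RNA-binding protein of germ cells, had 14247 and 29465 counts under ND and 2926 and 49 under HFD. Of the synaptonemal complex genes, in the same order, Sycp1 had 36, 48, 9038 and 7978 counts and Sycp2 had 46, 55, 24 and 11371. In HFD replicate 2, 13 of the 22 germ cell genes were above background, against 15.3% of all protein-coding genes. The germ cell sum there thus rested on a part of the list. In HFD replicate 2, where Amhr2 and Rspo1 were abundant, the collagens Col3a1 and Col1a1 had 16987 and 15691 counts and the stromal sum was highest, and whether stromal RNA has a part in the Amhr2 and Rspo1 values was not tested. Postn, a matrix protein, had 7281 counts there and 17 to 24 elsewhere. Other stromal genes did not follow them. Col1a2 had 134 counts in that library against 2295 and 161 in ND and 4197 in HFD replicate 1, and the matrix proteoglycans Dcn and Lum had 17 and 7 counts there against 2656 and 4916 in ND replicate 1. The keratins and other markers of the surface epithelium (8 genes) summed to 8.67 to 26.2 CPM, with Krt7 at 13 to 48 counts and Krt18 at 2 to 35.

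Each of the remaining somatic lists was led by a single library or by none. The 7 erythroid genes found summed to 1973 CPM in ND replicate 1, of which Hbb-bs gave 894 CPM from 7350 counts, and to 2.18 to 11.5 CPM elsewhere, where Hbb-y had 3 to 6 counts and Alas2 had 4 to 24 counts. The 8 endothelial genes summed to 714 CPM in HFD replicate 1, where Kdr had 4398 counts, and to 24.7 to 77 CPM elsewhere, with Pecam1 at 421 counts in ND replicate 2 and Egfl7 at 13 to 65. The 10 macrophage genes summed to 17 to 54.5 CPM, led by Ptprc with 43 to 85 counts. The 3 mesonephric genes Pax2, Pax8 and Cdh16 summed to 4.8 to 12.8 CPM. Counts that were high in few libraries were also found among 10 housekeeping genes. Gapdh had 5477, 92, 23 and 60 counts, B2m had 2887, 5, 10 and 11, and Rplp0 had 67, 6842, 489 and 86, and Tbp was at background in all 4 libraries. Actb had 15804 to 28782 counts, and Eef1a1, a translation factor, had 28745, 36862, 5730 and 362. edgeR's quasi-likelihood test called 0 genes in the lists of other cell types and housekeeping genes. After its filter on low counts it tested only 1 of 7 erythroid, 6 of 10 macrophage, 5 of 8 surface epithelial and 9 of 10 stromal genes. Of 22 germ cell, 9 stromal, 5 surface epithelial and 10 housekeeping genes tested, 9, 3, 1 and 1 had an unadjusted p under 0.05. Of all genes tested, 11.2% did. DESeq2 called 10 germ cell, 4 stromal, 4 housekeeping, 3 erythroid and 1 endothelial gene. Over all genes it called 45.3% of those given an adjusted p, and how many listed genes had one is not reported. The 3 erythroid genes and Lum among its calls were not tested by edgeR's quasi-likelihood test.

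**Figure D4:**
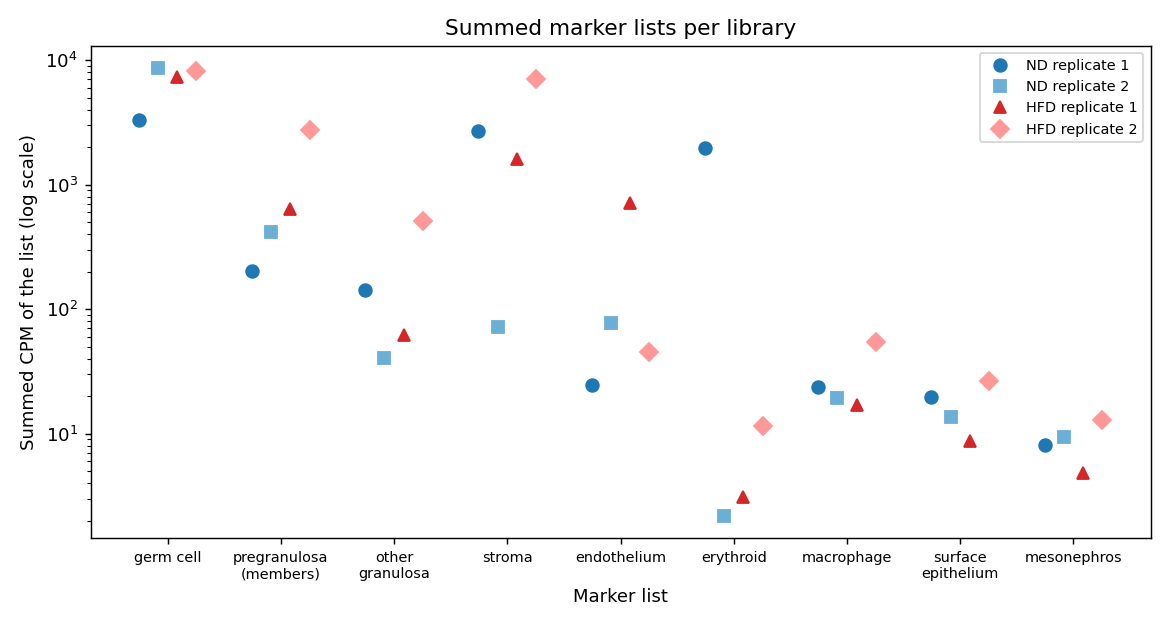
Summed CPM of 9 marker lists (horizontal axis) in each library (log vertical axis). Germ cell genes are at 3318 CPM or above in every library. The 10 pregranulosa genes, Nr2f2 included, run from 201 to 2722 CPM. Without Nr2f2, which is not drawn, they run from 17.8 to 2083 CPM. Stroma is highest in HFD replicate 2 at 7092 CPM and lowest in ND replicate 2 at 72.3 CPM.

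Of the summed CPM of the 10 genes over the 4 libraries, ND replicates 1 and 2 held 5.05% and 10.5%, and HFD replicates 1 and 2 held 16.1% and 68.3%. Among 3269 other protein-coding genes with a mean of at least 20 CPM, those with the nearest shares included Dync1h1, Arpc2, Il6st and Tenm4, at Euclidean distances of 0.0387 to 0.0679 over the 4 shares. These genes had 931, 3549, 6328 and 632 counts in HFD replicate 2, in the same order, where each had 70.1% to 73.1% of its CPM. Over 4 libraries a likeness of this kind describes these values alone.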

How the data were processed

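RNA of SSEA-1-sorted oocytes from E18.5 fetuses was measured in 2 ND and 2 HFD libraries. The deposited files hold raw counts per Ensembl gene, which the authors obtained with featureCounts from HISAT2 alignments (mm10) of reads that had been through Trim Galore. The annotation release, the strand setting and the handling of reads aligned to several places are not given in the sources used here. Names, positions and merged exon lengths came from GENCODE M21 (GRCm38), which listed 55141 of 55401 identifiers. CPM is a count over the library total of 5723605 to 8223255, times 1000000. Shares and ratios have exact Clopper-Pearson 95% intervals.

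Diets were compared in R 4.3.3 with edgeR 4.0.16 (quasi-likelihood fit and test, legacy FALSE, TMM, filterByExpr), with Benjamini-Hochberg adjustment, as log2 fold changes of HFD over ND whose standard error is their size over the square root of F. TMM factors were 1.02, 0.940, 0.692 and 1.51 for ND replicates 1 and 2 and HFD replicates 1 and 2. DESeq2 1.42.0, limma-voom (limma 3.58.1), other scalings and filters, edgeR's legacy fit, a replicate block and each library left out were alternatives. The functions were tested on simulated data. The genes, the lists and the olfactory background were chosen with earlier results of these data known, and the 6 promoter motifs and 2 of the alternatives after the values were seen. All 10 genes were named, and from each list the gene with the highest mean and the highest in each library, together with the genes nearest in pattern, of which some are not reported here; Amh, Kitl, Fshr, Inhba, Inhbb, Pdgfra, Postn, Dcn, Lum, Gapdh, B2m, Rplp0, Tbp, Bmpr1a and the Smad genes were added after their values were seen.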

Additional observations from a re-analysis of the deposited data

How the results depend on the processing

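Among the 10 pregranulosa genes, 0 were called by edgeR and 3 by DESeq2, and among the listed pathway and marker genes 0 and 41. DESeq2 gave an adjusted p to 5 of the 10 genes and to a number of listed genes that is not reported. Over all genes it called 45.3% of those given one. Its 41 calls included 3 erythroid genes and Lum, which the main edgeR fit did not test. All other alternatives, a replicate block included, gave 0 for the 10 genes and for the listed genes, as did leaving out each library (0 to 0). Calls without a fold change minimum were counted for the 10 genes alone, with 0. The replicate numbers share no stated origin, the differences between replicates 1 and 2 correlated at 0.0112 between the diets over 19335 genes, and the block gave 0 calls. Fst, Lgr5 and Nr2f2 kept their direction in all fits that included them. The other 7 changed direction only with a library left out, over ranges of -0.26 to 0.38 for Foxl2, -0.91 to 8.32 for Amhr2, -0.33 to 0.91 for Wnt4, -0.86 to 8.35 for Rspo1, -0.39 to 0.83 for Gata4, -1.32 to 0.38 for Wt1 and -1.12 to 0.70 for Irx3. Library size scaling without TMM shifted the median log2 fold change of all genes by 0.18. Fits that required 10 counts in every library could not include Fst, Amhr2, Rspo1 or Wt1.

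For ND replicates 1 and 2 and HFD replicates 1 and 2, the summed level was 201, 419, 640.4 and 2722 CPM. With TMM it was 202, 456, 939.7 and 1865, without the 50 most abundant genes in the total 248, 567, 825 and 3906, and as reads per kilobase over the total 58.0, 186, 186 and 2428. Without Nr2f2 it was 33.8, 409, 17.8 and 2083 CPM. Genes above background numbered 3, 5, 1 and 4. With the 95th percentile ND replicate 1 had 6 and HFD replicate 2 had 7, with over 3 counts alone each library had 10, at 10 CPM ND replicates 1 and 2 had 1 and 2, and with 53 keratin-associated protein genes as background they had 1 and 2. The limit thus decides the calls of genes near it. With 2 libraries against 2, an exact permutation test cannot give a p under 0.333.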
